A study of Mus musculus with 30 samples.

Results

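The haemoglobin and erythroid genes followed here are 6 of the 21073 genes in the deposited table of EDL muscle (extensor digitorum longus, a fast muscle of the lower hind limb): the β-globin genes Hbb-b1 and Hbb-bs, the α-globin genes Hba-a1 and Hba-a2, Alas2 and Slc4a1. The members were taken by their symbols, and all 6 were found, whatever the case of the letters (HBB-B1, HBB-BS, HBA-A1, HBA-A2, ALAS2 and SLC4A1). They were chosen on their measured RNA, which differed between EAE-induced and OVA-immunized mice on day 14, so that contrast is given as a description without a test. Each comparison that holds EAE-induced or OVA-immunized mice of day 14, those between the days and the interactions included, shares mice with that contrast, so its p-values are not independent of the choice. The comparisons within day 40 and that between the days in unimmunized mice share none.

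RNA-Seq was performed on EDL muscle of 30 wild-type female SJL/J mice, with 5 mice in each of 6 groups. Unimmunized mice (Ctrl) received nothing, OVA-immunized mice received ovalbumin in complete Freund's adjuvant (CFA), and EAE-induced mice received a proteolipid protein peptide (PLP139-151 with serine at residue 140) in CFA, which starts a relapsing and remitting experimental autoimmune encephalomyelitis (EAE) without pertussis toxin. Each treatment was sampled on day 14, near the peak of disease, and on day 40, in remission, in different mice. CFA was therefore shared by the OVA and EAE groups, and unimmunized mice did not have it. Values are RPKM, reads per kilobase of exon, scaled to library size, and the reads behind each library, estimated from the spacing of its lowest values, came to 18.1 M to 31.7 M (median 21.6 M; M, mega). All 12 markers of fast muscle fibres exceeded 3 RPKM in every group. Counts rebuilt from the estimated depth were compared in the 60 pairs of mice of 1 group. Their squared differences averaged 11.0 to 213 times the variance that read sampling gives.

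Haemoglobin is a tetramer of α- and β-globin chains, each with a haem group that binds oxygen. Red cells fill with it while they mature, and reticulocytes, the youngest red cells in the blood, still carry globin mRNA, so a muscle taken with its blood holds globin RNA as well as that of its own fibres. Alas2 makes the rate-limiting enzyme of haem synthesis in erythroid cells, and Slc4a1 makes band 3, the anion exchanger of the red cell membrane. In whole muscle, fewer erythroid cells and less RNA in each of them cannot be told apart.

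The members lie on 3 chromosomes of GRCm38.p6. Hba-a1 (chromosome 11 from 32283672 to 32284486) and Hba-a2 (chromosome 11 from 32296492 to 32297310) are neighbours, Slc4a1 is elsewhere on the same chromosome (from 102348820 to 102365281), Hbb-bs is on chromosome 7 (from 103826523 to 103827928) and Alas2 on chromosome X (from 150547417 to 150570622). Because these genes varied together, the 250 bases before the start of 3 of them are shown from RefSeq, 5′ to 3′ on the strand of the gene. Capitals mark GATAA (the letters GATA factors read), CACCC (read by Krüppel-like factors), CCAAT and TATAA, searched on both strands.
Hba-a1, chr11:32283422-32283671, plus strand: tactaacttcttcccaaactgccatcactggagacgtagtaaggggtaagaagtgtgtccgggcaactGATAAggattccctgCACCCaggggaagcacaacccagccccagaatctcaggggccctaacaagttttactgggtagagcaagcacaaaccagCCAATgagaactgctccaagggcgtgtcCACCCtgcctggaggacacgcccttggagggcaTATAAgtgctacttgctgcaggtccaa
Hbb-bs, chr7:103827929-103828178, minus strand: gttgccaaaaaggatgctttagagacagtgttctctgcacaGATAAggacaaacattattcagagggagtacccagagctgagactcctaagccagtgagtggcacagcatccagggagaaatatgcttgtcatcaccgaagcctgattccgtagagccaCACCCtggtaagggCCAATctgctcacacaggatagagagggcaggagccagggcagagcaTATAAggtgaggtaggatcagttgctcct
Alas2, chrX:150547167-150547416, plus strand: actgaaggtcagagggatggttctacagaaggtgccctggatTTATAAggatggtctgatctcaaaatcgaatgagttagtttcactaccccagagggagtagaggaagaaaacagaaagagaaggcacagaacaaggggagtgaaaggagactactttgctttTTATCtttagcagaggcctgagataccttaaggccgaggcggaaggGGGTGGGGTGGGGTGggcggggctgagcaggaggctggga

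The Hba-a1 and Hbb-bs windows each held all 4 motifs, which was the case for 0.968% of the 32851 RefSeq promoter windows of this length. The 4 motifs were picked before the search, and their part in the levels was not tested. Taken singly, GATAA was found in 22.6% of the windows, CACCC in 52.0%, CCAAT in 33.8% and TATAA in 22.8%. In Hba-a1 the TATAA letters began 27 bases before the start, CCAAT 88, CACCC 60 and 167, and GATAA 182 bases before it. In Hbb-bs the corresponding distances were 29, 76, 90 and 209 bases. The Alas2 window held GATAA once and CACCC 3 times in a row, all on the opposite strand, and TATAA on both strands in overlapping letters 207 and 208 bases before the start; CCAAT was not among its letters. No other matches overlapped. The window of Hba-a2 is not shown, because a run of 247 bases in it was identical to that of Hba-a1.

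The copies are also alike in their RNA. The Hba-a1 and Hba-a2 transcripts (699 and 554 bases in GENCODE M21) shared an identical run of 415 bases, and 48.4% of the 150-base stretches of the first and 65.7% of those of the second occurred in the other. Hbb-bs shared 58.7% of such stretches with Hbb-bt, which has no row in the table. Reads of 150 bases could therefore be split between copies in the authors' counting (how reads with several matches were treated is not given in the sources used here), and the level of a single haemoglobin copy is less certain than that of a pair.

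In unimmunized mice on day 14 the haemoglobin genes were well expressed, with means of 228 ± 113 RPKM (SD, n = 5) for Hba-a1, 108 ± 54.6 for Hbb-bs, 82.2 ± 39.4 for Hba-a2 and 78.7 ± 40.6 for Hbb-b1. Alas2 was at 5.36 ± 3.19 RPKM and Slc4a1 at 0.0670 ± 0.0589 RPKM. In all 30 mice the 4 haemoglobin genes held between 0.00667% and 0.398% of the summed RPKM. Their summed level was lowest at 32.0 RPKM in an EAE-induced mouse on day 14 and highest at 1961 RPKM in an OVA-immunized mouse on day 40, a 61.3-fold span.

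**Figure D1:**
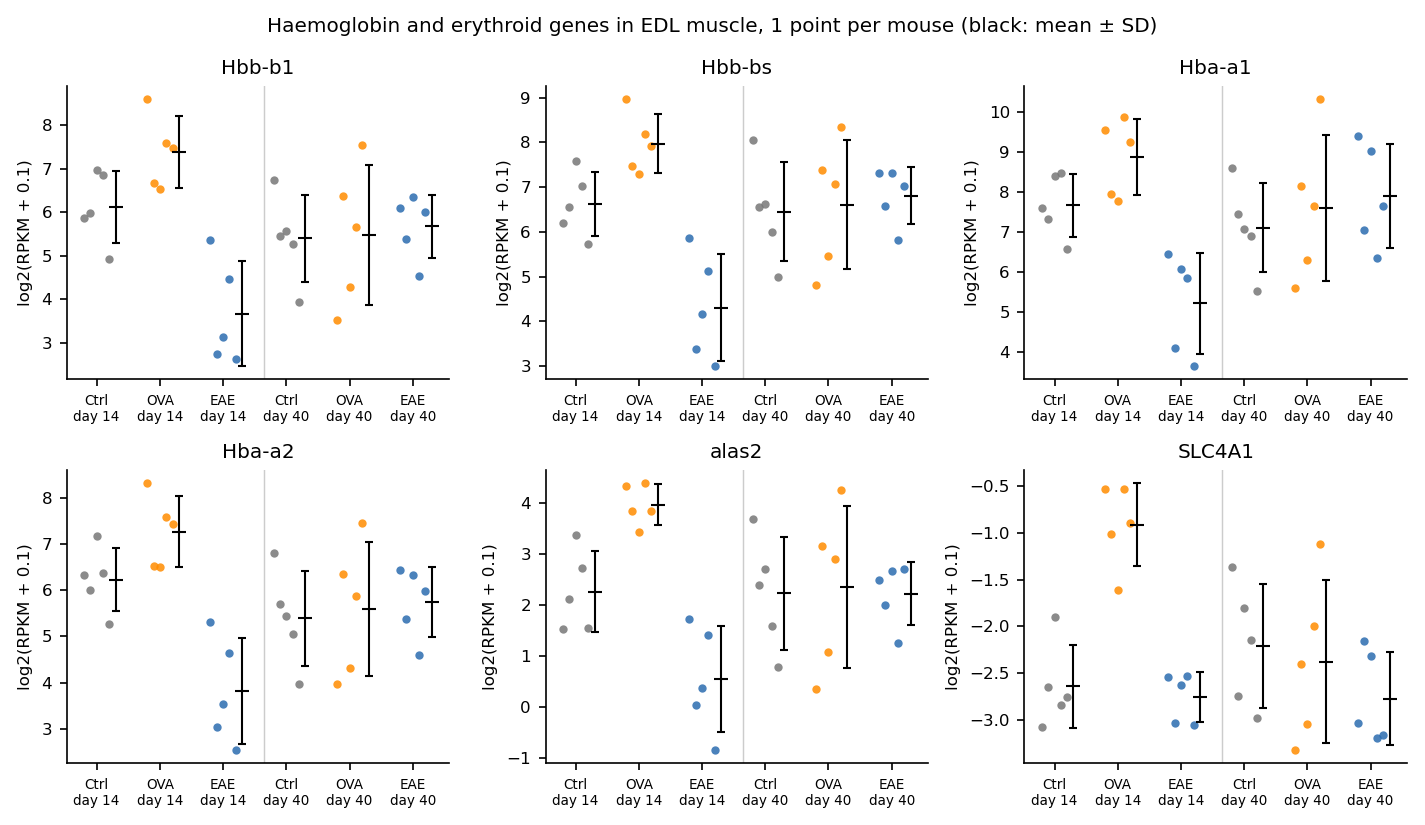
Level of each member in every mouse as log2(RPKM + 0.1), by group, with points for mice (in the order of their replicate numbers) and black bars for the mean ± SD of 5 mice. In the haemoglobin genes and Alas2 the OVA-immunized mice of day 14 were highest and the EAE-induced mice of day 14 lowest on average, and the 3 groups of day 40 overlapped.

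The 6 groups were then ordered by their mean RPKM. OVA-immunized mice of day 14 ranked first for every member and EAE-induced mice of day 14 last, and the other 4 groups lay between them in varying order. Each group overlapped its neighbour in this order for every member. The spread within a group was large: the highest mouse exceeded the lowest by 3.65 to 4.14-fold for Hbb-bs and Hbb-b1 in unimmunized mice of day 14, and by 11.5 and 16.2-fold in OVA-immunized mice of day 40.

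On day 14, haemoglobin RNA was lower in EAE-induced than in unimmunized mice. Hba-a1 measured 195, 159, 336, 354 and 95.2 RPKM in the 5 unimmunized mice. It measured 87.7, 16.8, 67.0, 56.9 and 12.4 RPKM in the 5 EAE-induced mice. The highest of these lay just under the lowest unimmunized mouse. The groups therefore did not overlap, as was the case in this direction for 11.0% of the 8771 genes tested. The log2 fold change, on the log2(RPKM + 0.1) scale used throughout, was -2.46 ± 0.56 (SE; 95% interval -3.65 to -1.26; adjusted p = 0.00239 in limma).

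The other haemoglobin genes gave the same picture. Hbb-b1 measured 58.1, 63.5, 125, 116 and 30.3 RPKM in unimmunized mice and 41.2, 6.63, 8.64, 22.1 and 6.03 RPKM in EAE-induced mice. A single EAE-induced mouse, the first, reached into the unimmunized range, and the log2 fold change was -2.46 ± 0.53 (adjusted p = 0.00164 in limma). Hbb-bs changed by -2.31 ± 0.49 and Hba-a2 by -2.41 ± 0.49 on the log2 scale, and in both the same mouse was the only one within the unimmunized range.

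The haem synthesis gene went with the globins. Alas2 measured 2.78, 4.23, 10.4, 6.55 and 2.85 RPKM in unimmunized mice against 3.22, 0.935, 1.21, 2.57 and 0.459 in EAE-induced mice. Again the first EAE-induced mouse was the only one to overlap, and the log2 fold change was -1.72 ± 0.44 (adjusted p = 0.00487). In all, 5 of the 5 members tested were called lower (adjusted p < 0.05 together with more than a 1.5-fold change), where 11.8% of the 8771 genes tested were called lower. These EAE-induced mice took part in the choice of the members, so this count is not independent of it. The 5 members also varied together over the 30 mice (r from 0.915 to 0.990), so they are not 5 separate results. All 5 were called whichever of the 10 mice was left out, with log2 fold changes between -2.88 and -1.37. Summing Hba-a1 with Hba-a2 gave -2.43, and summing Hbb-b1 with Hbb-bs gave -2.38. The likeness of Hbb-b1 and Hbb-bs in sequence was not measured here.

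Slc4a1 stayed below 3 RPKM in every group and was tested without the filter on low values. It measured 0.0188 to 0.169 RPKM in unimmunized and 0.0201 to 0.0731 RPKM in EAE-induced mice, with a log2 fold change of -0.11 (95% interval -0.61 to 0.38; adjusted p = 0.739 in limma). At this level the membrane gene showed no detectable difference. Its fold changes depend on the pseudocount.

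Sums of markers of other cells were set beside these values. The summed RPKM of 12 platelet and megakaryocyte markers was 13.2 to 25.3 in EAE-induced and 25.4 to 45.8 in unimmunized mice, and 1 of the 12, the platelet chemokine gene Pf4, exceeded 3 RPKM and was called lower. The 12 endothelial markers, all above 3 RPKM, summed to 157 to 214 RPKM against 186 to 250, ranges that overlap, and 4 of the 12 were called lower. The 12 lymphocyte markers summed to 4.22 to 12.8 RPKM against 20.6 to 40.4. Most of that sum was the immunoglobulin heavy chain gene Ighm (3.79 ± 2.53 against 25.9 ± 7.37 RPKM). Ighm was the only one above 3 RPKM and was called lower. The B cell receptor gene Cd79b was at 0.681 ± 0.198 against 0.660 ± 0.174 RPKM. Without the filter, 5 of the 12 lymphocyte markers were called lower and 0 higher, against 11.4% and 9.35% of all genes. In the opposite direction, 14 neutrophil markers summed to 221 to 407 RPKM in EAE-induced and 5.47 to 12.2 RPKM in unimmunized mice. In unimmunized mice 1 platelet and 1 neutrophil marker were at 0 in every mouse. The 12 fast fibre markers summed to 76929 to 97652 RPKM in EAE-induced and 106654 to 150395 RPKM in unimmunized mice, without overlap. Of these 12 markers, 2 were called lower. Of all 8771 genes tested, 11.8% were called lower, and 11.0% were lower in each EAE-induced mouse than in each unimmunized mouse. The part of these cells in the haemoglobin values was not tested.

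The difference from OVA-immunized mice of day 14 was larger still, and it is the one on which the members were picked. Hba-a1 measured 749, 246, 217, 934 and 607 RPKM in the OVA-immunized mice, Hbb-b1 387, 102, 93.3, 194 and 177 RPKM, and Alas2 20.2, 14.4, 10.7, 20.9 and 14.4 RPKM. Each OVA-immunized mouse was above each EAE-induced mouse in all 6 members, as was the case for 8.20% of the 8674 genes that passed the filter. This share does not cover Slc4a1, which was under the filter. The log2 fold changes of EAE-induced against OVA-immunized mice were -3.71 for Hbb-b1, -3.66 for Hbb-bs, -3.66 for Hba-a1, -3.45 for Hba-a2, -3.43 for Alas2 and, without the filter, -1.84 for Slc4a1. For comparison, 9.28% of the 8674 genes tested were called lower in that contrast, and 7.33% lower and 6.94% higher without the filter. On the linear scale the fitted ratio of OVA to EAE was 10.8 for Alas2 and up to 13.1 for Hbb-b1.

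**Figure D2:**
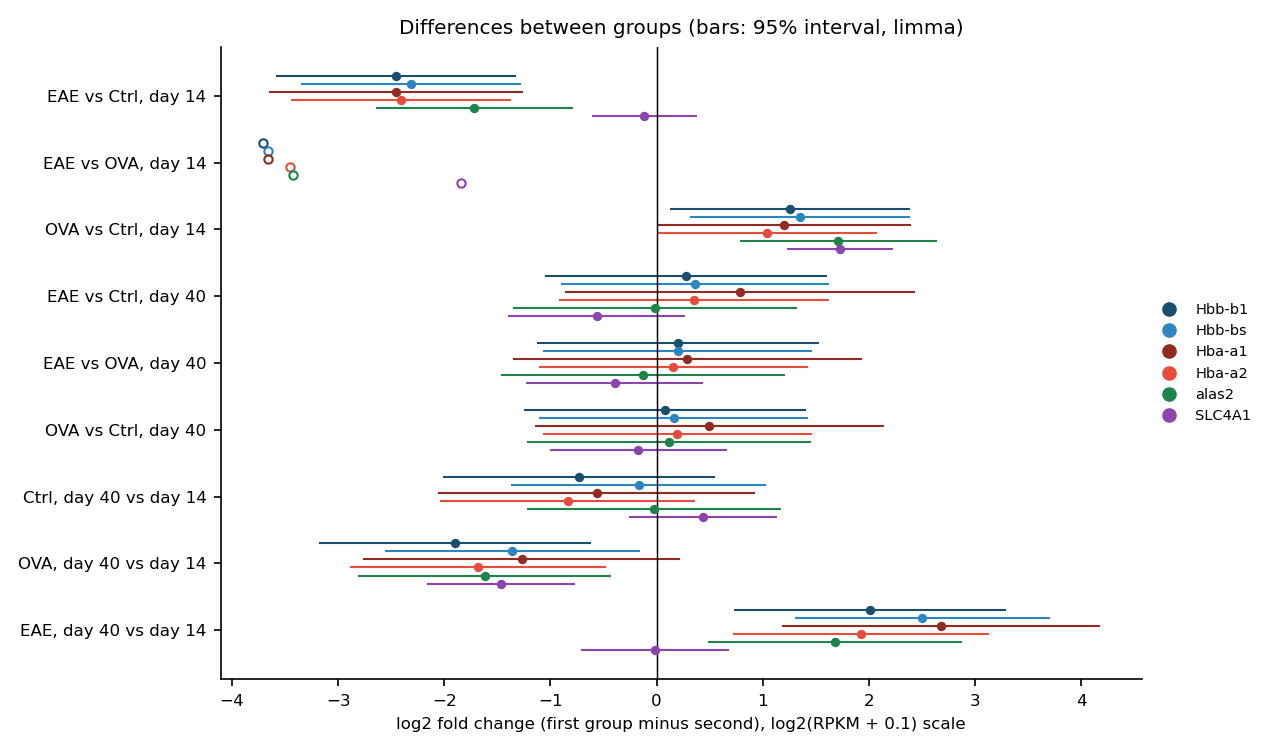
Log2 fold change of each member in the 9 comparisons (first group minus second, log2(RPKM + 0.1) scale), with 95% intervals from limma; Slc4a1 comes from the fit without a filter on low values. Open points without intervals mark the contrast on which the members were chosen; the intervals of the haemoglobin genes lie below 0 for EAE vs Ctrl on day 14, above 0 for EAE on day 40 vs day 14, and across 0 in the comparisons within day 40.

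OVA immunization was compared with no immunization to see what adjuvant and a foreign antigen do without EAE. On day 14 the means of all 6 members were higher in OVA-immunized mice, but the mice overlapped in the haemoglobin genes. Hbb-bs measured 498, 178, 156, 291 and 241 RPKM in the OVA-immunized mice, against 52.6 to 192 RPKM in unimmunized mice. The log2 fold changes were 1.35 ± 0.49 for Hbb-bs, 1.25 ± 0.53 for Hbb-b1, 1.20 ± 0.56 for Hba-a1 and 1.04 ± 0.49 for Hba-a2. None of these 4 was called in limma (adjusted p from 0.381 to 0.515), although all 5 members tested, Alas2 included, had an unadjusted p under 0.05. Of the 8471 genes tested, 330 were higher and 491 lower at an unadjusted p under 0.05 in limma. Called higher were 0.0944% and lower 0.0472% of them.

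The 2 erythroid members that are not globins separated the groups. Of the 8471 genes that passed the filter, 1.09% were higher and 1.61% lower in each OVA-immunized mouse than in each unimmunized mouse. These shares do not cover Slc4a1, which was under the filter. Alas2 was above the unimmunized range in each OVA-immunized mouse (10.7 to 20.9 RPKM against 2.78 to 10.4), with a log2 fold change of 1.71 ± 0.44 that did not pass the correction (adjusted p = 0.201 in limma). Slc4a1 measured 0.593, 0.397, 0.229, 0.594 and 0.438 RPKM in OVA-immunized mice, all above the 0.0188 to 0.169 RPKM of unimmunized mice. Without the filter on low values its log2 fold change was 1.73 ± 0.23 (adjusted p = 0.00314 in limma), and it stayed called when any 1 of the 10 mice was left out; 0.134% of the 17192 genes in that fit were called higher and 0.0814% lower. With a pseudocount of 1 the log2 fold change of Slc4a1 shrank to 0.44, under the fold threshold. The OVA-immunized mice of day 14 took part in the choice of the members, so these differences from unimmunized mice are not independent of it. In the same mice the neutrophil markers summed to 71.7 to 241 RPKM, the platelet markers to 18.2 to 43.0 RPKM, the lymphocyte markers to 16.7 to 25.6 RPKM and the endothelial markers to 175 to 260 RPKM, and their part was not tested.

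On day 40, in remission, the groups overlapped in every member and none of the members passed the test. Hba-a1 measured 388, 175, 134, 119 and 45.8 RPKM in unimmunized mice, 48.2, 283, 78.9, 201 and 1279 RPKM in OVA-immunized mice, and 679, 132, 525, 80.8 and 200 RPKM in EAE-induced mice. The first unimmunized and the fifth OVA-immunized mouse were the highest of their groups in all 6 members. Hbb-bs measured 265, 94.5, 98.0, 64.0 and 31.7 RPKM in the unimmunized mice, 28.1, 166, 43.6, 134 and 322 RPKM in the OVA-immunized mice, and 160, 95.8, 159, 55.8 and 130 RPKM in the EAE-induced mice.

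None of the 5 members tested was called in limma in any of the 3 comparisons of day 40, and none had an unadjusted p under 0.05. Between EAE-induced and unimmunized mice the log2 fold changes ran from -0.01 for Alas2 to 0.79 for Hba-a1 (adjusted p from 0.506 to 0.993), where 0.0690% of the 8691 genes tested were called higher and 0.391% lower. The 95% interval for Hba-a1, from -0.86 to 2.43, leaves room for changes of either sign, and that for Hbb-bs ran from -0.90 to 1.63. Against OVA-immunized mice the log2 fold changes of EAE-induced mice ran from -0.13 to 0.29, and OVA-immunized mice differed from unimmunized mice by 0.08 to 0.50. Of all genes tested, 0.0349% were called higher and 0.174% lower in the first of these comparisons and 0% in the second. Slc4a1 measured 0.0272 to 0.289 RPKM in unimmunized, 0 to 0.360 RPKM in OVA-immunized and 0.00962 to 0.124 RPKM in EAE-induced mice, and it was not called either (adjusted p of 0.421, 0.669 and 0.989 in limma for EAE vs Ctrl, for EAE vs OVA and for OVA vs Ctrl). Without the filter 0.0347% of all genes were called higher and 0.283% lower for EAE vs Ctrl, and 0% and 0.0173% for EAE vs OVA.

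Within EAE-induced mice, haemoglobin RNA was higher on day 40 than on day 14. The log2 fold change was 2.68 ± 0.73 for Hba-a1 (adjusted p = 0.00349 in limma), 2.51 ± 0.59 for Hbb-bs (adjusted p = 0.000917), 2.01 ± 0.63 for Hbb-b1 (adjusted p = 0.00936) and 1.93 ± 0.59 for Hba-a2 (adjusted p = 0.0082). Alas2 went from 1.68 ± 1.16 to 4.89 ± 1.77 RPKM (log2 fold change 1.68 ± 0.58, adjusted p = 0.0189). For each of these 5 genes, 4 of the 5 mice of day 40 were above all mice of day 14. All 5 were called higher, where 8.36% of the 8709 genes tested were. The EAE-induced mice of day 14 took part in the choice of the members, so this count is not independent of it. The call of Alas2 was lost without the fifth EAE-induced mouse of day 14 (log2 fold change 1.33, adjusted p = 0.0723 in limma). Slc4a1 showed no such difference (log2 fold change -0.01, 95% interval -0.71 to 0.68), in a fit without the filter that called 9.49% of all genes higher and 8.41% lower. Among EAE-induced mice of day 40 the endothelial markers summed to 186 to 231 RPKM, the platelet markers to 16.8 to 28.7, the lymphocyte markers to 21.7 to 46.5 and the neutrophil markers to 9.08 to 56.3. The fast fibre markers summed to 104916 to 123826 RPKM, above all EAE-induced mice of day 14, and 4 of the 12 were called higher than on day 14. The part of any of these cells was not tested.

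OVA-immunized mice went the other way without passing the test. Their log2 fold changes from day 14 to day 40 were -1.90 ± 0.63 for Hbb-b1, -1.68 ± 0.59 for Hba-a2, -1.62 ± 0.58 for Alas2, -1.36 ± 0.59 for Hbb-bs and -1.27 ± 0.73 for Hba-a1. No member tested was called in limma (adjusted p from 0.0527 to 0.289), while 4 of the 5 had an unadjusted p under 0.05. Of the 8648 genes tested, 841 were lower and 1283 higher at an unadjusted p under 0.05 in limma. Called lower were 1.71% and higher 2.25% of them. Without the fifth OVA-immunized mouse of day 40, whose summed haemoglobin RNA was the highest of all, 3 members were called lower: Hbb-b1 (-2.42), Hba-a2 (-2.15) and Alas2 (-2.10). Without the second OVA-immunized mouse of day 14 it was 2, and without the second of day 40 or the third of day 14 it was 1. Slc4a1, tested without the filter, was lower on day 40 (0.124 ± 0.145 against 0.450 ± 0.153 RPKM). Its log2 fold change was -1.46 ± 0.34 (adjusted p = 0.00626 in limma). In that fit 1.06% of the genes were called lower and 3.81% higher. The OVA-immunized mice of day 14 took part in the choice of the members, so these differences between the days are not independent of it.

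In unimmunized mice none of the members was called between the days, and none had an unadjusted p under 0.05. The log2 fold changes ran from -0.84 for Hba-a2 to -0.03 for Alas2 (adjusted p from 0.263 to 0.974 in limma); 5.02% of the 8788 genes tested were called higher and 4.35% lower. Slc4a1 gave 0.44 without the filter (adjusted p = 0.375), where 5.33% were called higher and 2.76% lower.

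Whether the difference between EAE-induced and unimmunized mice itself changed from day 14 to day 40 was tested as an interaction over all 30 mice. It includes the EAE-induced mice of day 14 on which the members were chosen, so these values are not independent of the choice. The interaction was called for the 4 haemoglobin genes, by 3.24 ± 1.03 for Hba-a1 (adjusted p = 0.0114 in limma), 2.76 ± 0.83 for Hba-a2 (adjusted p = 0.008), 2.74 ± 0.88 for Hbb-b1 (adjusted p = 0.0125) and 2.67 ± 0.83 for Hbb-bs (adjusted p = 0.00979) on the log2 scale. Alas2 gave 1.71 ± 0.83 and was not called (adjusted p = 0.0872). Of the 9013 genes tested 32.7% were called in this interaction, counting both directions, so a call was common among all genes. The difference between OVA-immunized and unimmunized mice changed by -1.59 to -0.71, and none of the members was called (adjusted p from 0.559 to 0.813 in limma), nor was any of the 8848 genes. None of these 5 had an unadjusted p under 0.05 there. Slc4a1, without the filter, gave -1.90 ± 0.48 in that interaction (unadjusted p = 0.000483, adjusted p = 0.233 in limma). That interaction holds the OVA-immunized mice of day 14, which also took part in the choice of the members.

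The genes of the α-globin pair and of the β-globin pair were then compared within each mouse. Hba-a1 exceeded Hba-a2 in all 30 mice, by 2.06 to 7.81-fold with a median ratio of 3.17. Most mice of day 14 lay between 2.06 and 3.53, but unimmunized mouse 4 had a ratio of 4.28, OVA-immunized mouse 4 had 4.88 and EAE-induced mouse 3 had 5.80. On day 40 the fifth OVA-immunized mouse reached 7.33, and EAE-induced mice 1 and 3 reached 7.81 and 6.57. In the mouse with the highest Hba-a1 level (1279 RPKM), Hbb-b1 was at 185 RPKM and Hbb-bs at 322 RPKM. Each of these 2 values was below the highest of the gene in OVA-immunized mice of day 14, while that of Hba-a1 was not.

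**Figure D3:**
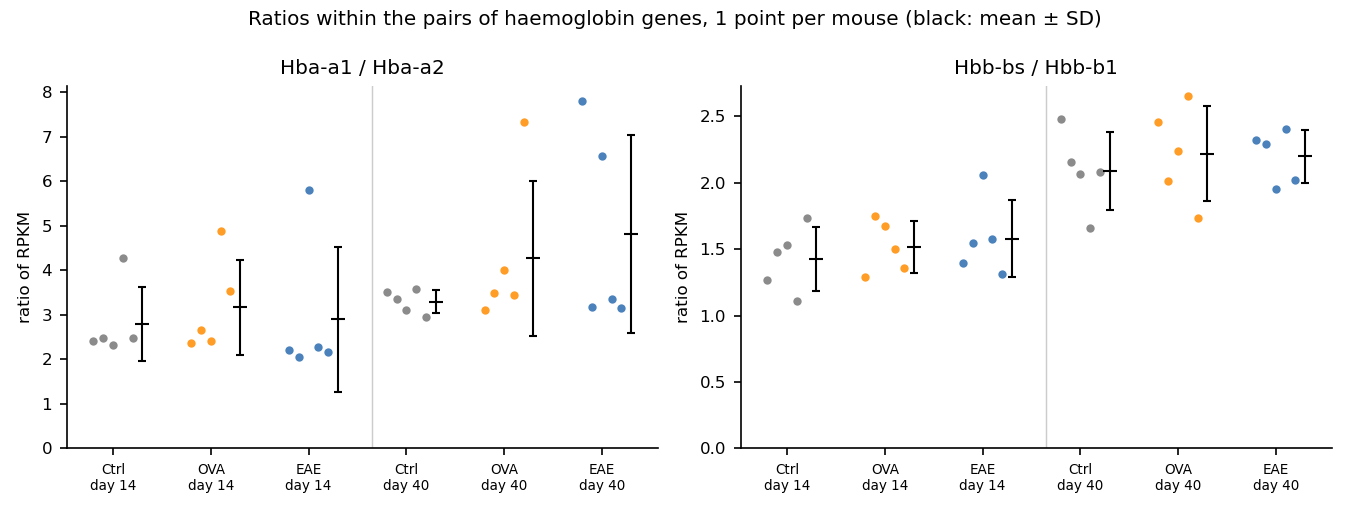
Ratio of the RPKM of Hba-a1 to Hba-a2 (left) and of Hbb-bs to Hbb-b1 (right) in every mouse by group, with black bars for the mean ± SD of 5 mice and axes that start at 0. Single mice stand apart in the α-globin ratio, up to 7.81, while the β-globin ratio is higher on day 40 on average in each treatment.

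Hbb-bs exceeded Hbb-b1 in all 30 mice as well, with a ratio that differed between the days. The ratio was 1.42 ± 0.24 in unimmunized, 1.52 ± 0.20 in OVA-immunized and 1.58 ± 0.29 in EAE-induced mice on day 14. On day 40 it was 2.09 ± 0.29, 2.22 ± 0.36 and 2.20 ± 0.20 (SD, n = 5 each). The days overlapped in each treatment, and the two-sided exact permutation p was 0.0159, 0.0159 and 0.0238 (0.0476 each after adjustment over the 6 ratio tests; the smallest exact p for 5 against 5 mice is 0.00794). With 1 mouse left out the exact p rose to at most 0.0238, 0.0238 and 0.0397 before adjustment. The ratio was chosen for testing after its values were seen. The Hba-a1 to Hba-a2 ratio also had higher means on day 40 (3.30, 4.27 and 4.81 against 2.79, 3.17 and 2.90), with exact permutation p of 0.254, 0.302 and 0.175 (0.302, 0.302 and 0.262 after adjustment). With 1 mouse left out the exact p ran from 0.00794 (without the fourth unimmunized mouse of day 14) to 0.421 in unimmunized mice, from 0.0873 to 0.603 in OVA-immunized mice, and from 0.0317 (without the third EAE-induced mouse of day 14) to 0.421 in EAE-induced mice. Day cannot be told apart from anything else that differed between the 2 sets of mice.

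Across the 30 mice the members rose and fell together. On the log2(RPKM + 0.1) scale Hbb-b1 correlated with Hba-a2 with r = 0.990, with Hbb-bs with r = 0.974 and with Hba-a1 with r = 0.936. Alas2, which lies on another chromosome, correlated with the mean of the haemoglobin genes with r = 0.962, and Slc4a1 with r = 0.718. After the group means were taken out, the correlation of Hbb-b1 was 0.979 with Hba-a2 and 0.939 with Alas2, so mice of 1 group varied along the same line. These values are descriptions of 30 mice whose genes share a library. Alas2 came to 5.60 to 23.3 RPKM per 1000 RPKM of haemoglobin, a 4.17-fold span, where Alas2 itself spanned 45.5-fold over the 30 mice.

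**Figure D4:**
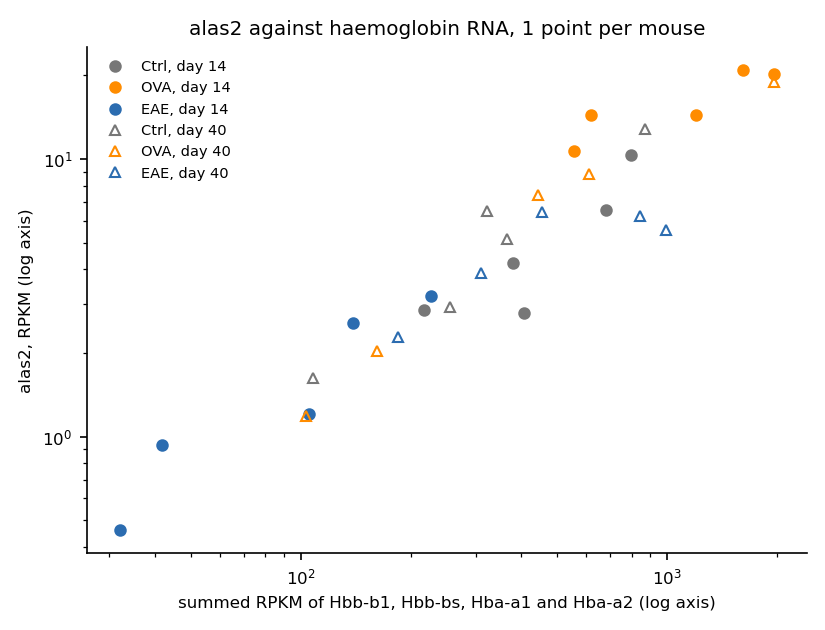
Alas2 (RPKM) against the summed RPKM of the 4 haemoglobin genes in each of the 30 mice, both on log axes, with colours for treatment, filled circles for day 14 and open triangles for day 40. The mice form a single band from an EAE-induced mouse at 32.0 to an OVA-immunized mouse at 1961 summed RPKM.

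Among the 10984 other genes with a mean above 1 RPKM, the 8 most like the haemoglobin genes over the 30 mice, not all named here, included Tomm40l (r = 0.857), Isg20 (r = 0.852), Agt (r = 0.841), Mdh1 (r = 0.832), Ube2l6 (r = 0.831), Alas1 (r = 0.828) and Atp5sl (r = 0.823). Within groups, over deviations from the group means, the 8, again not all named, included Isg20 (r = 0.857), Ube2l6 (r = 0.738) and, at r = 0.735 to 0.698, Rccd1, Ccl27a, Glt8d1, Fam69b and Tomm40l. Mdh1, which makes cytosolic malate dehydrogenase, stood at 448 ± 46.5, 517 ± 60.7 and 213 ± 34.0 RPKM in Ctrl, OVA and EAE mice of day 14. Isg20, an interferon-induced exonuclease gene, stood at 2.20 ± 0.68, 3.21 ± 0.87 and 1.30 ± 0.46 RPKM.

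The wider erythroid programme was followed in 4 lists of genes for haem synthesis, the red cell membrane, late erythroid cells and erythroid transcription factors, which hold 56 genes of the table besides the members. Between EAE-induced and unimmunized mice of day 14, 29 of them passed the filter on low values, and 2 were called higher and 3 lower, against 14.6% and 11.8% of all genes tested. Their median log2 fold change was -0.00, where that of all genes was 0.11. Many of these genes are also used by muscle and other cells.

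Of the genes called, Tfrc, the transferrin receptor that brings iron into cells, fell from 21.2 ± 2.89 to 10.4 ± 0.95 RPKM (log2 fold change -1.01 ± 0.11, adjusted p = 7.89e-06 in limma). Alas1, the enzyme that starts haem synthesis outside the erythroid line, fell from 53.5 ± 5.43 to 31.6 ± 2.28 RPKM (-0.75 ± 0.10). Bpgm, which makes the 2,3-bisphosphoglycerate that loosens oxygen from haemoglobin, fell from 45.3 ± 5.71 to 25.0 ± 4.35 RPKM (-0.86 ± 0.13). Higher were Fech, ferrochelatase, which inserts iron into haem (24.9 ± 6.08 to 37.1 ± 1.68 RPKM, 0.62 ± 0.16), and Sptb, a β-spectrin of the membrane skeleton of red cells and muscle (20.6 ± 4.96 to 51.5 ± 13.6 RPKM, 1.31 ± 0.24). None of these 5 genes, named because they were called, had overlapping groups. In all, 7 of the 29 listed genes tested did not overlap. Of the 8771 genes tested, 11.0% were lower and 21.2% higher in each EAE-induced mouse than in each unimmunized mouse. The call of Fech was lost without the first unimmunized mouse (log2 fold change 0.43), and with median-of-ratios scaling (0.58).

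**Figure D5:**
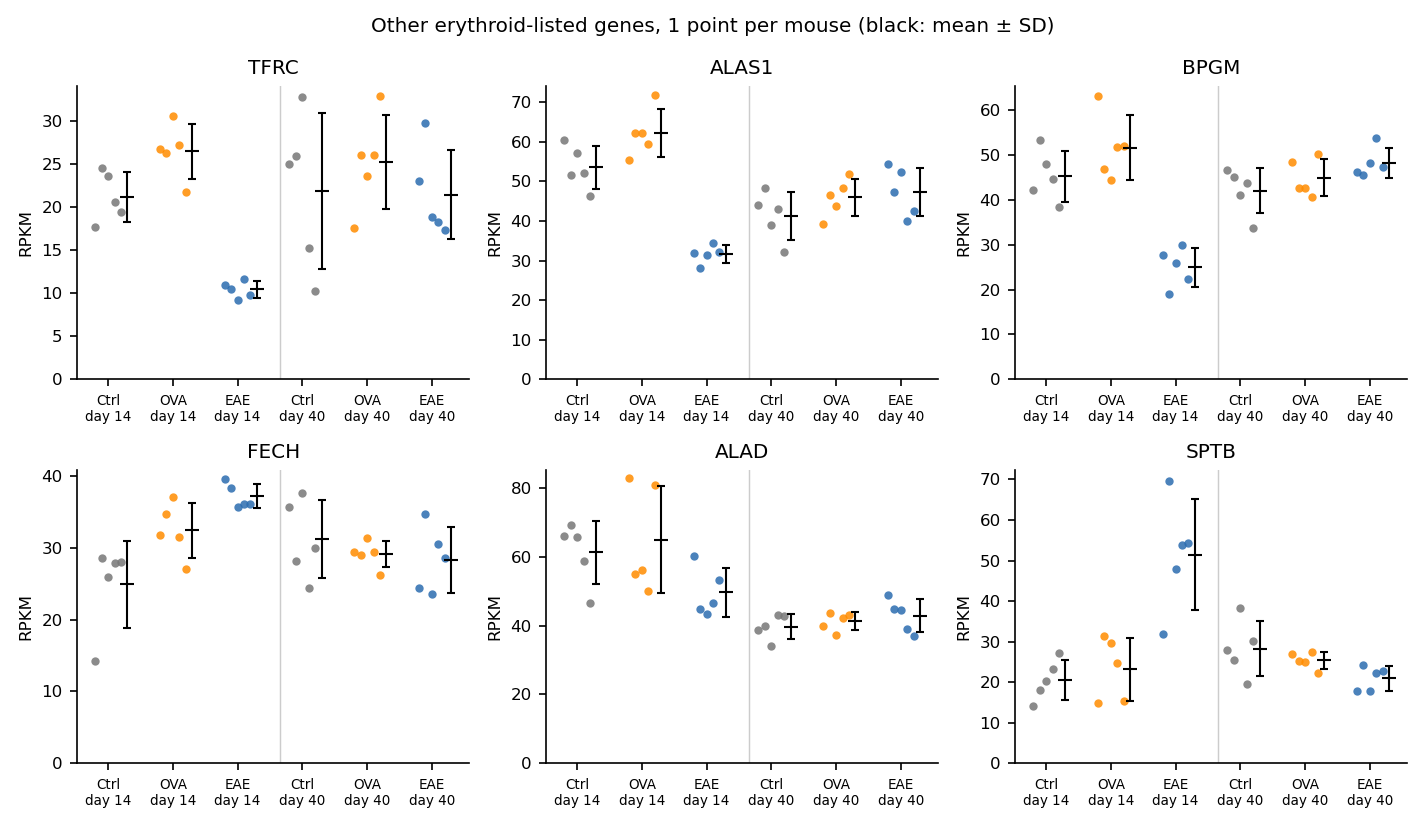
RPKM of 6 genes of the erythroid lists in every mouse by group, with black bars for the mean ± SD of 5 mice and axes that start at 0. The means of Tfrc, Alas1 and Bpgm are lowest and those of Fech and Sptb highest in EAE-induced mice of day 14, and the mean of Alad is lower on day 40 in each treatment.

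Without the filter, 27 more genes of these lists were tested in that comparison. Epor, the erythropoietin receptor gene, was called lower (0.420 ± 0.080 to 0.149 ± 0.080 RPKM), as were Rhd, a blood group antigen gene (0.186 ± 0.109 to 0.0316 ± 0.0313 RPKM), and Gata1, the main transcription factor of the erythroid line (0.137 ± 0.102 to 0.0333 ± 0.0322 RPKM). In that fit 9.35% of all genes were called higher and 11.4% lower. Xk and Car1 were called higher, at 1.94 ± 0.15 against 1.13 ± 0.26 RPKM and 0.134 ± 0.069 against 0.0301 ± 0.0172 RPKM. The call of Gata1 was lost without any of 7 of the 10 mice. These levels amount to few reads, and with a pseudocount of 1 none of the 5 stayed past the fold threshold. Klf1, another erythroid factor, was at 0.113 ± 0.033 RPKM in unimmunized and 0.212 ± 0.095 RPKM in EAE-induced mice.

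Between OVA-immunized and unimmunized mice of day 14, 1 of 30 listed genes was called higher in limma and none lower, against 0.0944% and 0.0472% of all genes; the call was lost when some single mice were left out.

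Compared with OVA-immunized mice of day 14, EAE-induced mice had 1 of 30 listed genes called higher (Sptb) and 5 lower (Tfrc, Bpgm, Alas1 and Car2 are 4 of them), against 11.0% and 9.28% of all genes. Genes called without the filter included Trim10 (-1.46 ± 0.27) and Rhd (-0.84 ± 0.28), which were lower, and Car1, which was higher, and the call of Rhd was lost without any of 6 mice. With a pseudocount of 1 none of these 3 was past the fold threshold.

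In EAE-induced mice, 2 of 29 listed genes tested were called higher on day 40 than on day 14 and 2 lower, against 8.36% and 12.7% of all genes. Tfrc was at 21.4 ± 5.14 RPKM (log2 fold change from day 14 1.01 ± 0.21), Bpgm at 48.2 ± 3.24 RPKM (0.96 ± 0.11) and Sptb at 20.9 ± 2.98 RPKM (-1.26 ± 0.21), and Ube2o, a ubiquitin ligase of reticulocytes, was called lower (-0.60 ± 0.12), a call lost without any of 4 mice. In OVA-immunized mice 2 of the listed genes were called lower on day 40, among them Alad, the second enzyme of haem synthesis (64.9 ± 15.5 to 41.2 ± 2.61 RPKM; -0.62 ± 0.13). Alad was lower on day 40 in unimmunized mice as well (61.3 ± 9.11 to 39.7 ± 3.69 RPKM; -0.62 ± 0.13). The call of Alad was lost without any of 2 mice in OVA-immunized and 3 in unimmunized mice. Without the filter Trim10 (-1.30 ± 0.41) was also called lower in OVA-immunized mice, a call lost without any of 7 of the 10 mice.

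No gene of the 4 lists was called in any comparison within day 40 in limma. An unadjusted p under 0.05 in limma was found for 8 of 29 in EAE-induced against unimmunized mice. It was found for 4 in EAE-induced against OVA-immunized and 0 in OVA-immunized against unimmunized mice. Of all genes tested, 662 of 8691 were higher and 1761 lower at that unadjusted p in the first comparison. In the second 320 of 8598 were higher and 1180 lower, and in the third 121 of 8706 and 151.

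Other globin genes ranged from genes listed at 0 to myoglobin, whose level was far above that of the members. Myoglobin (Mb), the oxygen store of muscle fibres, stood at 2838 ± 523 RPKM in unimmunized, 3336 ± 564 in OVA-immunized and 2057 ± 513 in EAE-induced mice of day 14, and it was called lower against OVA-immunized mice (log2 fold change -0.72 ± 0.18, adjusted p = 0.00568 in limma) but not against unimmunized mice (-0.48 ± 0.18, adjusted p = 0.0389, under the fold threshold; -0.60 without the first EAE-induced mouse, which passes it). Cytoglobin (Cygb) stood at 23.5 ± 2.23, 20.5 ± 2.97 and 16.5 ± 2.98 RPKM. The embryonic genes Hbb-bh1, Hbb-bh2 and Hba-x were listed at 0 in all 30 mice. Hbq1b, a θ-globin gene, measured 0.118 to 0.614 RPKM in OVA-immunized mice of day 14 and was listed at 0 in all 5 EAE-induced mice of that day.

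Genes that clear free haemoglobin and haem were followed in a list of 15, of which 12 passed the filter on day 14. Between EAE-induced and unimmunized mice 1 of them was called, Hp, the haptoglobin that binds free haemoglobin (7.69 ± 3.45 against 3.24 ± 0.23 RPKM, log2 fold change 1.04 ± 0.37, adjusted p = 0.0318 in limma), and this call was lost without any of 7 mice. Hmox1, the haem oxygenase that breaks down haem, was at 7.83 ± 1.52 against 8.30 ± 1.64 RPKM, and Cd163, the haemoglobin scavenger receptor of macrophages, at 4.86 ± 0.88 against 6.57 ± 1.45 RPKM; neither was called. In EAE-induced mice the iron exporter gene Slc40a1 rose from 4.84 ± 0.72 RPKM on day 14 to 8.14 ± 1.36 on day 40 and the ferritin heavy chain gene Fth1 fell from 2323 ± 555 to 1392 ± 159 RPKM. Of 11 genes of the response to low oxygen that passed the filter, EAE-induced mice of day 14 had 2 called higher and 3 called lower against unimmunized mice, and none in any comparison within day 40.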

How the data were processed

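Poly(A) RNA of EDL muscle was sequenced in 30 mice, and the authors deposited 1 table of normalized expression. Tested on the file, its values are log2(RPKM + 1), with 0.0001 written for a gene without a read (25.8% of values); the submitters' processing notes name Subread, featureCounts and the mm10 build. The deposited log2 values were turned back into RPKM, so no counts were tested. The depth per library is an approximate estimate and gives no counting interval.

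The 15 mice of a day were fitted together in limma 3.58.1 (R 4.3.3; lmFit, then eBayes allowing the variance to follow the mean). The scale was log2(RPKM + 0.1), and a gene entered when either compared group averaged over 3 RPKM; comparisons across days and interactions used all 30 mice. A gene was called at a Benjamini-Hochberg adjusted p below 0.05 with a fold change above 1.5. Intervals are 95%. Genes under the filter were taken from a fit without it. Ratios were compared by exact permutation tests over all splits of the mice, in Python 3.11.15 with numpy 2.4.6. The scripts were tested on simulated data.

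Mice were grouped by their labels, and p-values measure the spread between mice of this experiment. Genes named besides the members are those called in the erythroid, globin and haem clearance lists or most like the haemoglobin genes over the mice, with a few named for their role. Some genes that these rules name are counted in the lists but not reported here. The members and lists were chosen with earlier results of these data known. Promoters, transcripts and coordinates came from RefSeq GRCm38.p6 and GENCODE M21, matched by symbol; no sequence of Hbb-b1 or Slc4a1 was used. Alternatives were other pseudocounts, filters, scaling, variance models, sets of mice, a replicate block, summed copies and leaving out each mouse.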

Additional observations from a re-analysis of the deposited data

Results flagged for a closer look

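In 6 of 54 groups of 5 mice examined, the highest mouse stood apart from the other 4 by more than Dixon's 95% critical value. For independent groups of normally spread values chance alone gives this in about 1 of 20. The groups examined are several measures of the same mice on the linear scale, many of which vary together, so that rate does not apply directly. Hbb-bs was at 265 RPKM in the first unimmunized mouse of day 40, with the next mouse at 98.0 RPKM. Hba-a1 was at 1279 RPKM in the fifth OVA-immunized mouse of day 40, with the next at 283 RPKM. Slc4a1 was at 0.169 RPKM in the third unimmunized mouse of day 14, with the next at 0.0595 RPKM.

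The ratio of Hba-a1 to Hba-a2 stood apart in 3 groups. It was 4.28 in the fourth unimmunized mouse of day 14 (next 2.48), 5.80 in the third EAE-induced mouse of day 14 (next 2.28) and 7.33 in the fifth OVA-immunized mouse of day 40 (next 4.00).

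The difference between EAE-induced and unimmunized mice changed between the days for the 4 haemoglobin genes in the interaction test. The change was 2.74 for Hbb-b1, 2.67 for Hbb-bs, 3.24 for Hba-a1 and 2.76 for Hba-a2 on the log2 scale. Of all genes tested, 32.7% were called, counting both directions.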

How the results depend on the processing

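The calls of the 5 members between EAE-induced and unimmunized mice of day 14 were kept under every alternative run. For OVA-immunized mice on day 40 against day 14, where no member was called, 1 was called with a pseudocount of 1, 1 without the filter on low values and 1 with median-of-ratios scaling, and 0 to 3 with 1 mouse left out. Between OVA-immunized and unimmunized mice of day 14, 1 member was called without the filter. In EAE-induced mice 4 to 5 members were called between the days with 1 mouse left out.

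Of the other erythroid genes, EAE vs Ctrl on day 14 gave 10 calls without the filter and 15 without the fold threshold (4 to 8 with 1 mouse left out) instead of 5, and EAE vs OVA gave 11 and 10 instead of 6. OVA vs Ctrl on day 14 gave 2 without the filter and 0 with all 30 mice in 1 model (0 to 1 with 1 mouse left out) instead of 1. Without the fold threshold, EAE vs Ctrl on day 40 gave 1 instead of 0, and the days gave 8 instead of 1 in unimmunized mice, 5 instead of 2 in OVA-immunized mice and 10 instead of 4 in EAE-induced mice. With 1 mouse left out these were 0 to 1 in unimmunized and 0 to 2 in OVA-immunized mice, and the latter gave 1 with only the compared mice. The causes were not tested.

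Small differences changed sign. Alas2 between EAE-induced and unimmunized mice of day 40 was 0.079 with median-of-ratios scaling, Alas2 in unimmunized mice between the days was 0.00039 with a pseudocount of 1, and Slc4a1 in EAE-induced mice between the days was 0.0040. With 1 mouse left out, the log2 fold change of Slc4a1 ran from -0.22 to 0.072 in EAE vs Ctrl on day 14 and from -0.17 to 0.090 in EAE-induced mice between the days. In EAE vs Ctrl on day 40 the ranges were -0.084 to 0.62 for Hbb-b1, -0.00058 to 0.76 for Hbb-bs, -0.0055 to 0.70 for Hba-a2 and -0.37 to 0.35 for Alas2. In EAE vs OVA on day 40 they were -0.29 to 0.72 for Hbb-b1, -0.25 to 0.63 for Hbb-bs, -0.21 to 0.97 for Hba-a1, -0.25 to 0.62 for Hba-a2 and -0.63 to 0.35 for Alas2. In OVA vs Ctrl on day 40 they were -0.44 to 0.57 for Hbb-b1, -0.27 to 0.61 for Hbb-bs, -0.18 to 1.00 for Hba-a1, -0.27 to 0.60 for Hba-a2, -0.36 to 0.62 for Alas2 and -0.49 to 0.065 for Slc4a1. In unimmunized mice between the days they were -0.57 to 0.19 for Hbb-bs and -0.39 to 0.34 for Alas2.

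Replicate numbers did not pair the mice: the correlation of same-numbered mice ran from -0.73 to 0.70, and in none of the 9 comparisons did all 5 exceed 0.1. A replicate block gave 5 members called in EAE vs Ctrl on day 14, as without it, and 1 other erythroid gene instead of 2 in OVA-immunized mice between the days. Median-of-ratios scaling turned the split of all calls between the days from 441 higher and 382 lower to 252 and 580 in unimmunized mice, and from 195 and 148 to 152 and 193 in OVA-immunized mice. In EAE vs Ctrl on day 40 it turned 6 and 34 to 10 and 11, and in EAE vs OVA on day 40 3 and 15 to 0 and 2. No median of all genes moved by more than 0.094 on the log2 scale. At the level of Slc4a1 few reads limit every value.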
